A study of Mus musculus with 5 samples.

Results

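Mammalian DNA methylation is written, copied, removed and read by a small set of proteins, and 9 of their genes were followed here in whole cerebella of mice at postnatal day 14: the methyltransferases Dnmt1, Dnmt3a and Dnmt3b, the maintenance cofactor Uhrf1, the dioxygenases Tet1, Tet2 and Tet3, and the methyl-DNA readers Mbd1 and Mbd2. They were taken by name, through the GENCODE annotation of build GRCm38, from the 55421 genes of the deposited raw count table. All 9 were found and all 9 passed the filter on low counts. RNA depleted of ribosomal RNA had been sequenced as strand-specific libraries from 3 Yy1 cKO cerebella (Pcp2 Cre/+; Yy1 fx/fx) and 2 control cerebella of littermates (Pcp2 Cre/+; Yy1 fx/+). Every animal thus carried Pcp2-Cre, active in Purkinje neurons, which carry the output of the cerebellar cortex, and every animal carried a floxed copy of Yy1, a zinc finger transcription factor. The animals were of mixed sex, and the labels do not tie replicates to animals or litters. The p-values therefore rest on the spread among these 5 libraries, part of which may be technical.

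The enzymes of the DNMT family place methyl groups on cytosine, mainly in CpG dinucleotides. DNMT3A and DNMT3B methylate new sites, and DNMT3A also methylates cytosine outside CpG in maturing neurons. DNMT1 copies the pattern onto the new strand behind the replication fork, where UHRF1, a ubiquitin ligase, binds the half-methylated site and recruits it. TET enzymes oxidise methylated cytosine, which leads to its removal, and the oxidised base accumulates in Purkinje cells and other postmitotic neurons. MBD1 and MBD2 bind methylated CpG and bring in corepressors.

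On GRCm38 Uhrf1 lies at chr17:56303321-56323486 on the plus strand, Dnmt1 at chr9:20907209-20959888 on the minus strand, Dnmt3a at chr12:3806007-3914443 and Dnmt3b at chr2:153649450-153687730 on the plus strand. Tet1 lies at chr10:62804570-62908996, Tet2 at chr3:133463679-133545139 and Tet3 at chr6:83362373-83459084, all on the minus strand. Exons of genes on the opposite strand overlap those of Dnmt3a and Tet2, and these antisense genes had at most 3 counts in any library, while no annotated gene overlaps Uhrf1.

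The library totals were 18872728 to 20305705 counts in Yy1 cKO and 17424860 and 18007663 counts in controls. Of 20388 genes tested with the edgeR quasi-likelihood test, 10.7% were higher and 12.6% were lower in Yy1 cKO at a Benjamini-Hochberg adjusted p under 0.05. The genes called higher numbered 2185 (920 without control 1, 887 without control 2) and the genes called lower 2577 (1267 and 1300 without those). With scaling by library size alone 29.8% of the calls were higher, against 45.9% in the main fit, and the median log2 fold change of all genes was -0.08 with that scaling and -0.00086 in the main fit. Yy1 itself stood at 73.4, 81.7 and 75.8 CPM (counts scaled to a common library size after TMM normalization) in Yy1 cKO and at 74.6 and 73.7 CPM in controls, in whole tissue where most cells do not express the Cre and where the deleted part of the gene is not counted apart. Yy1 cKO 3 stood apart from the other Yy1 cKO libraries, with a chi-square per gene of 16.6 and 16.7 against them, where those 2 differed by 3.51 from each other and the controls by 7.72. Markers of the labelled tissue were present in every library: the summed level of 12 Purkinje cell markers was 6719 to 7928 CPM in Yy1 cKO and 5556 and 5596 CPM in controls, and that of 10 mature granule cell markers was 6476 to 6862 CPM in Yy1 cKO and 5185 and 5268 CPM in controls.

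Of the DNA methylation genes 2 fell in Yy1 cKO, Uhrf1 about 14.2-fold and Tet1 by 24.1%, and 7 did not pass the test. The 2 of 9 that fell stand beside 12.6% of all genes tested, and the 0 of 9 that rose beside 10.7%. At an unadjusted p under 0.05 there were 2 lower and 1 higher, Dnmt1, and DESeq2, limma-voom and limma-trend each called 2 lower and 0 higher. The median log2 fold change of the 9 was 0.01, beside -0.00086 for all genes tested. The CPM ranges of the groups did not overlap for 5 of the 9, with 2 above and 3 below the controls, and this held for 52.2% of all genes tested, so the count of separated members was near the background.

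**Figure D1:**
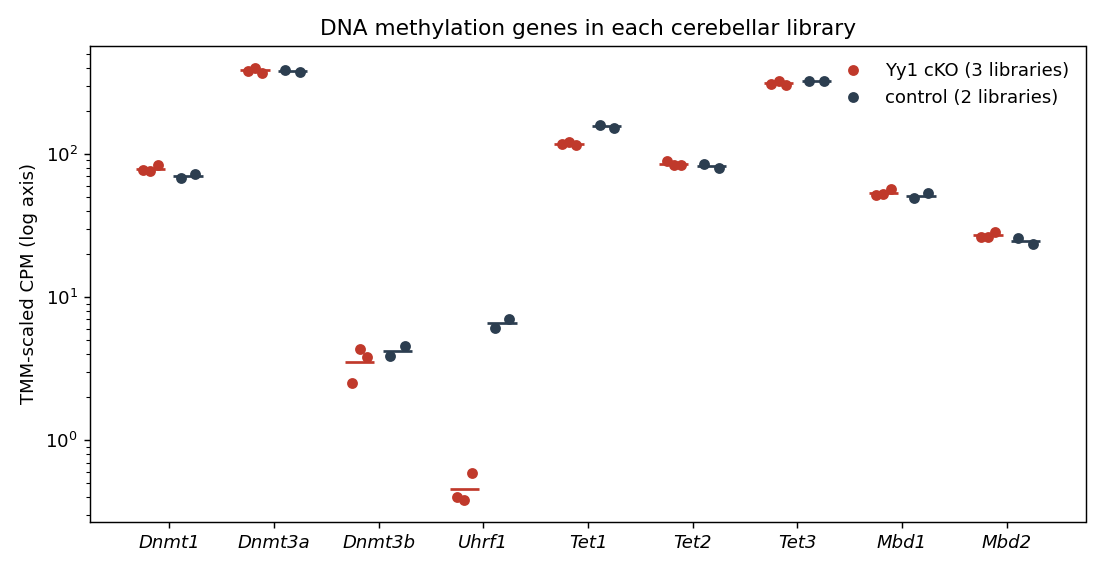
TMM-scaled CPM of each DNA methylation gene on a log axis, with a point for each library and a bar for the group mean, Yy1 cKO in red and control in dark blue. Uhrf1 stands between 0.38 and 0.59 CPM in Yy1 cKO and at 6.07 and 7.08 CPM in controls, while the points of most other genes lie side by side.

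The promoter windows of the genes that fell, and of Dnmt1 as the partner of Uhrf1, are given to show which sequences lie at their RefSeq starts. They come from RefSeq on GRCm38.p6, run from 250 bases before to 50 bases after an annotated start, and are written 5′ to 3′ on the strand of the gene. The motifs searched, on both strands, were AAGATGG, a core of the YY1 site, and TTCCCGC and TTGGCGC, both forms of the site of E2F factors, which drive genes of S phase. Capitals mark matches. The windows are Uhrf1 start A at chr17:56303087-56303386 and start B at chr17:56304063-56304362 on the plus strand, Dnmt1 start A at chr9:20959839-20960138, start B at chr9:20952930-20953229 and start C at chr9:20952574-20952873, and Tet1 at chr10:62887275-62887574 on the minus strand.
Uhrf1 start A: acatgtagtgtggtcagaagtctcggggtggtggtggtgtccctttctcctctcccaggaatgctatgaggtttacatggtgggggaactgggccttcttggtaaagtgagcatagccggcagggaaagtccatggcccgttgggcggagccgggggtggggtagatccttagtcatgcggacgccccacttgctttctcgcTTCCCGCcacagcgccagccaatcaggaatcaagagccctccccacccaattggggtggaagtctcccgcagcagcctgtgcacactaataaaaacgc
Uhrf1 start B: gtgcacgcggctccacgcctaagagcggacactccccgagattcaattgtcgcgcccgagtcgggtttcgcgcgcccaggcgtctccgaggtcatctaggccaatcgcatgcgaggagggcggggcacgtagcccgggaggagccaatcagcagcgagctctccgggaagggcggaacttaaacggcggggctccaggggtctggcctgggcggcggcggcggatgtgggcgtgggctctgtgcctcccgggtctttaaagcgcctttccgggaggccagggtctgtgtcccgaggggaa
Dnmt1 start A: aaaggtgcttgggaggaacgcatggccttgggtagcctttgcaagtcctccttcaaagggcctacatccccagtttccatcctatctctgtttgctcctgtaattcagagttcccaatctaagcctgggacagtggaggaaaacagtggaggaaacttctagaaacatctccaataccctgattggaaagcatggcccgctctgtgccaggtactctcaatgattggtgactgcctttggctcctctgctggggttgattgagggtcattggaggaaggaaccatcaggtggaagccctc
Dnmt1 start B: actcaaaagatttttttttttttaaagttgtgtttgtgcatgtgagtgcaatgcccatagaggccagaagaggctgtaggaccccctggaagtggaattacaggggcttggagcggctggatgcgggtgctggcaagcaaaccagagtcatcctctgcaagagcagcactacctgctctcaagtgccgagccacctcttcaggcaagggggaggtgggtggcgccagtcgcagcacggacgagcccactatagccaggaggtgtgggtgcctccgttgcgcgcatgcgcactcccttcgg
Dnmt1 start C: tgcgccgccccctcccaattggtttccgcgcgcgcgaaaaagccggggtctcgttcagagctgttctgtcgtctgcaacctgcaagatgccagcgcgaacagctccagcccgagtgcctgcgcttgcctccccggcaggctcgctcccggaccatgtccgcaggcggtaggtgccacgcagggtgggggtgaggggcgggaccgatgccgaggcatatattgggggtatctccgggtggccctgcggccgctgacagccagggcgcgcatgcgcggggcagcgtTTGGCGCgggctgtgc
Tet1: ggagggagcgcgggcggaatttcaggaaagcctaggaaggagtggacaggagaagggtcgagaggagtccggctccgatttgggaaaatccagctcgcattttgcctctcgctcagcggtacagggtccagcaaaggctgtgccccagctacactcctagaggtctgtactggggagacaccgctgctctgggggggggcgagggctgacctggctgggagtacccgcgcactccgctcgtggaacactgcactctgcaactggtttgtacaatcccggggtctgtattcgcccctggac

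Uhrf1 start A holds TTCCCGC beginning 48 bases before the start, and start C of Dnmt1 holds TTGGCGC beginning 34 bases after it, while starts A and B of Dnmt1 hold none of the motifs. No window of these 6 holds AAGATGG. The Tet1 window is at a RefSeq start inside the GENCODE span given above for Tet1, and the 5′ end of that span was not examined. RefSeq windows were given for 7 of the 9 genes, 12 windows in all, and the other windows hold none of the motifs. Over all 32851 windows of 300 bases, 6.34% held AAGATGG, 4.60% held TTCCCGC, 2.45% held TTGGCGC and 6.81% held either E2F form. The motifs do not overlap in the windows shown. Both E2F forms contain a CpG, and the shares were not matched for the CpG content of the windows. Starts A and B of Uhrf1 hold 12 and 33 CpG, starts A, B and C of Dnmt1 hold 2, 12 and 33, and the Tet1 window holds 17, beside a median of 7 over all windows. These matches are letters in a window and were not tested as binding sites.

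Uhrf1, which ties DNA methylation to replication, was nearly lost from the Yy1 cKO libraries. It had 8, 7 and 11 counts in Yy1 cKO, against 113 and 127 counts in controls. In scaled terms this was 0.40, 0.38 and 0.59 CPM in Yy1 cKO and 6.07 and 7.08 CPM in controls. Every Yy1 cKO library was far below both controls, and Yy1 cKO 3 was the least low. The log2 fold change was -3.82 ± 0.26 (SE, edgeR adjusted p = 1.2e-05), with a 95% interval of -4.40 to -3.25, and only 44 of the 20388 genes tested had a lower one. The lowest value was based on 7 counts, so counting error alone is sizeable within the Yy1 cKO group. Many genes listed for dividing cells and for young granule cells were lower too, 60% and 91.7% of them, beside 12.6% of all genes tested. Of 20 genes of S phase and division 12 fell and 0 rose (0 at an unadjusted p under 0.05 and 0 with DESeq2), and their summed level was 113 to 122 CPM in Yy1 cKO and 235 and 209 CPM in controls. Of 12 markers of granule cell precursors and young granule cells 11 fell, with a summed level of 1350 to 1510 CPM in Yy1 cKO and 2340 and 2406 CPM in controls, and Atoh1, which defines the precursors, had 0, 1 and 0 counts in Yy1 cKO and 16 and 19 counts in controls. In bulk tissue fewer cells of a type and less RNA per cell cannot be told apart, and the part of these cells in the fall of Uhrf1 was not tested.

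Uhrf1 fell further than most S phase and division genes did. Of the 20 genes, 3 had a lower log2 fold change than Uhrf1: the proliferation marker Mki67 (-4.60 ± 0.29), the topoisomerase Top2a (-4.43 ± 0.22) and the mitotic cyclin Ccnb1 (-3.92 ± 0.55). The ratio of Uhrf1 counts to the summed counts of the 20 genes was 0.00357, 0.00338 and 0.00483 in Yy1 cKO and 0.0258 and 0.0338 in controls. The groups did not overlap, and the difference in mean log2 ratio was -2.93 (exact permutation test, two-sided p = 0.1, the smallest that 3 against 2 libraries allow). With the mean of log2 CPM over the 20 genes in place of their sum, the difference was -2.43. The sum includes genes that were not called, among them Rrm1, a subunit of ribonucleotide reductase, at 27.8 to 32.4 CPM in Yy1 cKO and 31.5 and 31.6 CPM in controls.

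Dnmt1, the enzyme that Uhrf1 recruits, did not fall with it. It stood at 77.3, 76.0 and 83.2 CPM in Yy1 cKO and at 67.3 and 72.4 CPM in controls. All Yy1 cKO libraries lay above both controls, by a small margin. The log2 fold change was 0.17 ± 0.067 (SE, 95% interval 0.02 to 0.32), and it missed the threshold (edgeR adjusted p = 0.091). Under the alternatives its adjusted p was 0.069 to 0.46. The interval leaves room for a rise of this size and none for a fall like that of Uhrf1. Against the summed S phase and division genes the ratio of Dnmt1 counts was 0.685, 0.671 and 0.680 in Yy1 cKO and 0.286 and 0.346 in controls, a difference in mean log2 ratio of 1.11 (exact permutation test, two-sided p = 0.1, the smallest possible).

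**Figure D2:**
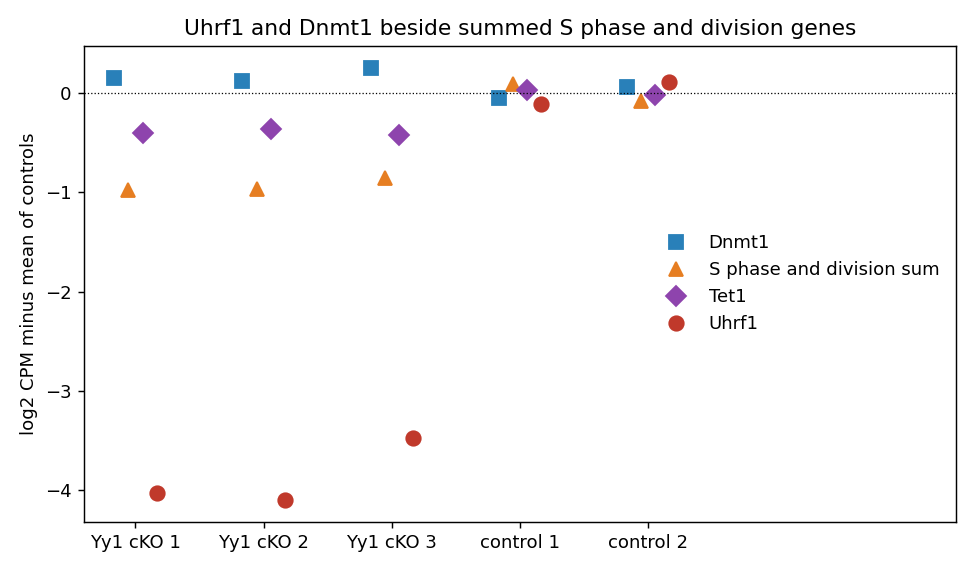
Level of Dnmt1, Tet1, Uhrf1 and the summed S phase and division genes in each library, as log2 CPM minus the mean of the controls, so that 0 is the control level. In Yy1 cKO Uhrf1 lies farthest down, the summed genes and Tet1 lie below 0, and Dnmt1 lies above it.

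Neither gene for new methylation passed the test. Dnmt3a, the main such enzyme of neurons, stood at 381, 400.4 and 368 CPM in Yy1 cKO and at 384 and 376 CPM in controls, with overlapping groups. Its log2 fold change was 0.01 ± 0.061 (SE, 95% interval -0.12 to 0.15, edgeR adjusted p = 0.91). Dnmt3b, an enzyme of early embryos, was rare, with 50, 79 and 71 counts in Yy1 cKO and 72 and 82 counts in controls. Its groups overlapped, with Yy1 cKO 1 lowest. Its log2 fold change was -0.25 ± 0.24 (edgeR adjusted p = 0.51), and any change within the 95% interval of -0.80 to 0.29 is compatible with these libraries. Without Yy1 cKO 1 the value was -0.05 and without Yy1 cKO 2 it was -0.42, and it was called in neither.

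Among the Tet genes Tet1 fell, and its family members did not pass the test. Tet1 stood at 117, 121 and 115 CPM in Yy1 cKO and at 158 and 152 CPM in controls, and the groups were clearly apart. Its log2 fold change was -0.40 ± 0.054 (SE, 95% interval -0.52 to -0.28, edgeR adjusted p = 6.8e-04), which is a modest change, since 17.7% of all genes tested had a lower one. Tet1 was well counted, with 2150 to 2332 counts in Yy1 cKO and 2734 and 2942 counts in controls. It was called in every alternative tried, and without 1 library its log2 fold change was -0.42 to -0.37. The part of precursors and young granule cells, whose markers moved with it, was not tested.

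Tet2 stood at 89.1, 83.8 and 83.7 CPM in Yy1 cKO and at 85.5 and 80.3 CPM in controls, and the groups overlapped. Its log2 fold change was 0.05 ± 0.062 (95% interval -0.09 to 0.18, edgeR adjusted p = 0.66). Tet3 stood at 307, 320.5 and 303 CPM in Yy1 cKO and at 323 and 323 CPM in controls. All its Yy1 cKO libraries lay just below the controls, and the log2 fold change was -0.06 ± 0.056 (95% interval -0.18 to 0.07, edgeR adjusted p = 0.52). Tet1 is thus the Tet gene whose interval does not reach 0, and whether its change differs from those of Tet2 and Tet3 was not tested.

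The readers Mbd1 and Mbd2, both on chromosome 18, were not called. Mbd1 stood at 51.3, 52.1 and 56.9 CPM in Yy1 cKO and at 48.8 and 53.3 CPM in controls (log2 fold change 0.07 ± 0.074, SE, 95% interval -0.10 to 0.23, edgeR adjusted p = 0.58). Mbd2, which recruits the NuRD corepressor, stood at 26.2, 26.3 and 28.6 CPM in Yy1 cKO and at 26.0 and 23.5 CPM in controls (log2 fold change 0.13 ± 0.093, SE, 95% interval -0.08 to 0.33, edgeR adjusted p = 0.38). The groups overlapped for Mbd1, and for Mbd2 they were separated by less than the spread within the controls.

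**Figure D3:**
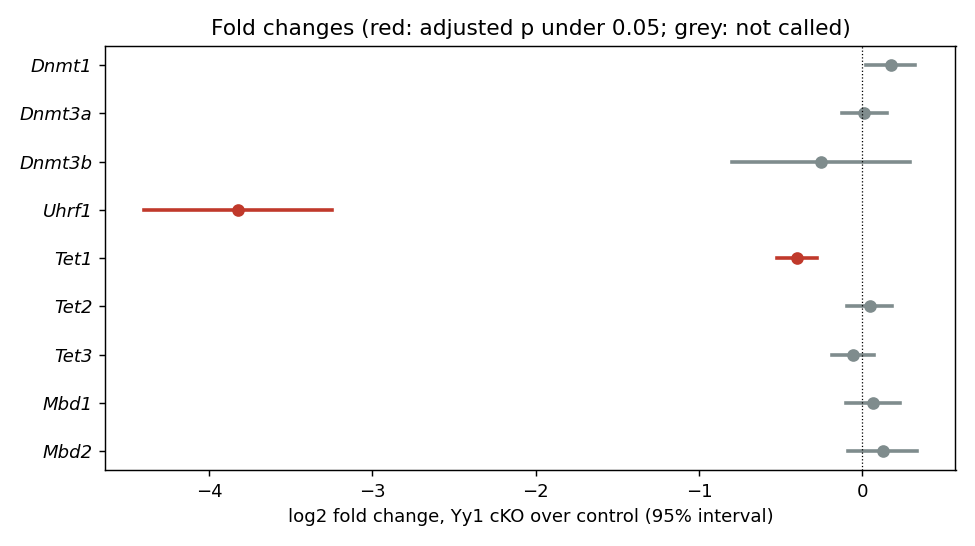
Log2 fold change of each DNA methylation gene, Yy1 cKO over control, with its 95% interval. Uhrf1 at -3.82 and Tet1 at -0.40 are in red as called, and the intervals of the others lie near 0, that of Dnmt3b being the widest among them.

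Per length of transcript, the family differed widely in level. On the TPM scale, computed from the counts and the length of the union of exons, Dnmt3a was highest, at 54.7 ± 0.71 in Yy1 cKO and 57.1 ± 2.5 in controls (SD, n = 3 and n = 2), and Tet3 followed, at 44.1 ± 0.13 in Yy1 cKO and 48.4 ± 1.4 in controls. Dnmt1 was at 25.4 ± 1.9 TPM in Yy1 cKO and 23.7 ± 0.55 TPM in controls. Tet1 was close to Dnmt1 in controls and below it in Yy1 cKO, at 18.1 ± 0.14 TPM in Yy1 cKO and 25.2 ± 1.35 TPM in controls. The ranges of Mbd2 and Mbd1 overlapped in either group. In that order they stood at 18.8 to 21.7 TPM and 17.9 to 20.7 TPM in Yy1 cKO and at 20.7 and 17.97 TPM and 18.6 and 19.5 TPM in controls. Tet1 thus overlapped Mbd1 in Yy1 cKO and lay above it in controls. Tet2 was at 12.05 ± 0.61 TPM in Yy1 cKO and 12.3 ± 0.90 TPM in controls. The lowest were Uhrf1, at 0.26 ± 0.071 TPM in Yy1 cKO and 3.86 ± 0.31 TPM in controls, and Dnmt3b, at 1.65 ± 0.41 TPM in Yy1 cKO and 2.07 ± 0.19 TPM in controls, so that Uhrf1 lay below Dnmt3b in Yy1 cKO and above it in controls.

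Dnmt3a gave 64.8 to 68.3% of the summed TPM of the 3 methyltransferases in Yy1 cKO and 67.8 and 70.0% in controls, and Dnmt1 gave 29.3 to 33.0% in Yy1 cKO and 27.7 and 29.5% in controls. The ratio of Dnmt1 to Dnmt3a per kilobase was 0.458, 0.428 and 0.509 in Yy1 cKO and 0.396 and 0.435 in controls, so the groups overlapped (difference in mean log2 ratio 0.16, exact permutation test, two-sided p = 0.3, where 0.1 is the smallest possible, so the test cannot show that the groups are alike). Among the Tet transcripts Tet1 gave 24.3 to 24.4% in Yy1 cKO and 29.1 and 29.5% in controls. The share of Tet3 was 58.8 to 60.0% in Yy1 cKO and 55.8 and 56.9% in controls, and that of Tet2 was 15.5 to 16.9% in Yy1 cKO and 14.0 and 14.6% in controls. These shares are given as values with no test.

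**Figure D4:**
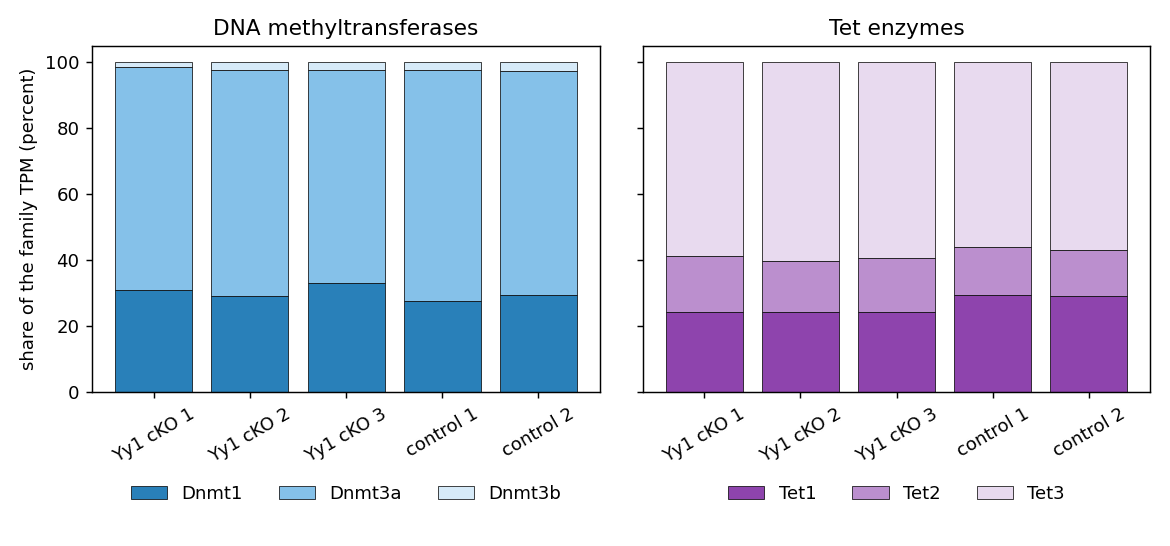
Share of each gene in the summed TPM of its family, one stacked bar for each library, DNA methyltransferases on the left and Tet enzymes on the right. Tet1 takes 24.3 to 24.4% of the Tet bars in Yy1 cKO and 29.1 and 29.5% in controls, and Dnmt1 takes 29.3 to 33.0% of the methyltransferase bars in Yy1 cKO and 27.7 and 29.5% in controls.

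Among 12 tested genes grouped as partners of maintenance methylation, 4 fell (33.3%, beside 12.6% of all genes) and 1 rose (8.33%, beside 10.7%). The 12 include Nsd1, Nsd2 and Setd2, histone methyltransferases that are not known as maintenance partners, and these were not called. The median log2 fold change of the 12 was -0.02, and the others did not pass the test. Hells, the chromatin remodeller needed for methylation of compact chromatin, stood at 4.78 ± 0.55 CPM in Yy1 cKO and 10.04 ± 0.084 CPM in controls (SD, n = 3 and n = 2), a log2 fold change of -1.07 ± 0.15 (edgeR adjusted p = 7.2e-04). Its activator Cdca7 had 8, 11 and 13 counts in Yy1 cKO and 36 and 40 counts in controls (-1.87 ± 0.33). Pclaf, the clamp-bound protein that UHRF1 ubiquitinates, had 3, 0 and 3 counts in Yy1 cKO and 88 and 50 counts in controls. Cdca7l fell by 2.37 ± 0.44 on the log2 scale and was not called without control 1 (edgeR adjusted p = 0.081). Uhrf2, the paralog of Uhrf1, stood at 57.5, 57.8 and 63.8 CPM in Yy1 cKO and at 63.3 and 59.7 CPM in controls (-0.04 ± 0.070), and Pcna, the clamp itself, at 18.9 to 20.7 CPM in Yy1 cKO and 19.1 and 19.96 CPM in controls. Lig1, the ligase of replication, stood at 10.3, 7.5 and 11.1 CPM in Yy1 cKO and at 9.24 and 9.31 CPM in controls (0.06 ± 0.17). Usp7, which removes ubiquitin from DNMT1 and UHRF1, rose by 0.20 ± 0.053, and was not called without control 1 (adjusted p = 0.12), control 2 (0.18) or Yy1 cKO 1 (0.076), or when scaled by library size alone (0.13).

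A further 10 genes grouped with the readers were tested, not all of which are known to bind methylated DNA. Of these 2 rose and 2 fell, beside 10.7% higher and 12.6% lower of all genes. Zfp57, which protects methylation at imprinted regions, stood at 10.5, 11.1 and 11.01 CPM in Yy1 cKO and at 37.1 and 34.6 CPM in controls, a log2 fold change of -1.72 ± 0.093 (edgeR adjusted p = 3.7e-06). Zbtb4, a zinc finger protein that binds methylated CpG, stood at 172, 171 and 178 CPM in Yy1 cKO and at 114 and 113 CPM in controls (0.61 ± 0.054, edgeR adjusted p = 5.4e-05). Its relative Zbtb38 rose by 0.29 ± 0.069 and Mbd6, which has the domain but is not known to bind methylated DNA, fell by 0.30 ± 0.061. Zbtb38 was not called without control 1 (adjusted p = 0.13), control 2 (0.11), Yy1 cKO 1 (0.064) or Yy1 cKO 2 (0.053), or when scaled by library size alone (0.051), and neither was Mbd6 without control 1 (0.066) or control 2 (0.083).

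Corepressors that the readers recruit mostly did not pass the test, with 3 lower and 1 higher of 21 tested. These are 14.3% lower and 4.76% higher, beside 12.6% and 10.7% of all genes. The NuRD subunits Chd3, a remodeller (199 ± 23.7 CPM in Yy1 cKO and 294 ± 9.6 CPM in controls, log2 fold change -0.56 ± 0.092), and Hdac2, a histone deacetylase (67.2 ± 0.47 CPM in Yy1 cKO and 97.5 ± 3.1 CPM in controls, -0.54 ± 0.056), fell. Rbbp4, a histone chaperone of NuRD, fell by 0.24 ± 0.054 and Mta3 rose by 0.32 ± 0.070, and neither was called without control 1 (adjusted p = 0.061 and 0.065) or control 2 (adjusted p = 0.13 and 0.11), nor was Mta3 without Yy1 cKO 1 (adjusted p = 0.051). Scaled by library size alone, 6 of the 21 were lower.

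Downstream of the Tet enzymes, 4 of 15 repair and partner genes fell (26.7%, beside 12.6% of all genes) and 1 rose (6.67%, beside 10.7%). Tdg encodes a glycosylase that cuts out further oxidised forms of the base, not the form that accumulates in neurons. It stood at 45.4, 46.9 and 48.2 CPM in Yy1 cKO and at 62.3 and 64.5 CPM in controls. Its log2 fold change was -0.44 ± 0.063 (edgeR adjusted p = 9.7e-04), close in size to that of Tet1. Neil3, a glycosylase of dividing cells, had 1, 0 and 3 counts in Yy1 cKO and 37 and 36 counts in controls. Apex1, the endonuclease of base excision repair, fell by 0.69 ± 0.12 and was not called without control 1 (adjusted p = 0.051). Lig3, a DNA ligase, fell by 0.25 ± 0.064, a call lost with DESeq2 (adjusted p = 0.063) and without control 1 (0.17), control 2 (0.092), Yy1 cKO 1 (0.083) or Yy1 cKO 2 (0.070). Cxxc4, which binds TET2 and lowers its protein in cultured cells, rose by 0.50 ± 0.083.

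Among 12 enzymes around alpha-ketoglutarate, the cosubstrate of TET proteins, 5 rose (41.7%, beside 10.7% of all genes) and 1 fell (8.33%, beside 12.6%). The list mixes enzymes that make alpha-ketoglutarate, use it or do neither, so the counts do not give its level. Idh1, the cytosolic enzyme that makes it, stood at 29.2, 26.5 and 24.1 CPM in Yy1 cKO and at 57.1 and 58.3 CPM in controls (log2 fold change -1.12 ± 0.088, edgeR adjusted p = 3.0e-05). Those that rose were Got1 (0.42 ± 0.058) and the mitochondrial Sdha (0.39 ± 0.057), Ogdh, Idh3g and Idh3b (0.27 to 0.33). Without control 1 or control 2 there were 2 that rose, since Ogdh, Idh3g and Idh3b were not called (adjusted p = 0.11, 0.11 and 0.086 without control 1, and 0.084, 0.073 and 0.15 without control 2), and Idh3b was not called without Yy1 cKO 1 or 2 (adjusted p = 0.060 and 0.057). Of 14 genes of one-carbon metabolism and the methyl donor, 1 fell, the thymidylate synthase Tyms (-1.05 ± 0.24), and 1 rose, Mat2b (0.22 ± 0.068). Each is 7.14% of the list, beside 12.6% lower and 10.7% higher of all genes. Tyms was not called without control 1 or control 2 (adjusted p = 0.093 and 0.059), and Mat2b was lost in 9 alternatives. Of 15 germline genes that DNA methylation silences in somatic tissue, 3 passed the filter on low counts, Ddx4, Sycp1 and Piwil2. Of these 0 were called (0 at an unadjusted p under 0.05, and 0 with DESeq2, limma-voom and limma-trend). With 10.7% higher and 12.6% lower of all genes, 0 of 3 is too few to read. Sycp1, of the meiotic synapsis complex, stood at 14.5, 13.8 and 7.41 CPM in Yy1 cKO and at 7.68 and 7.92 CPM in controls, so that Yy1 cKO 3 lay below both controls and the others well above them. Without Yy1 cKO 3, 1 gene of this list was higher.

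**Figure D5:**
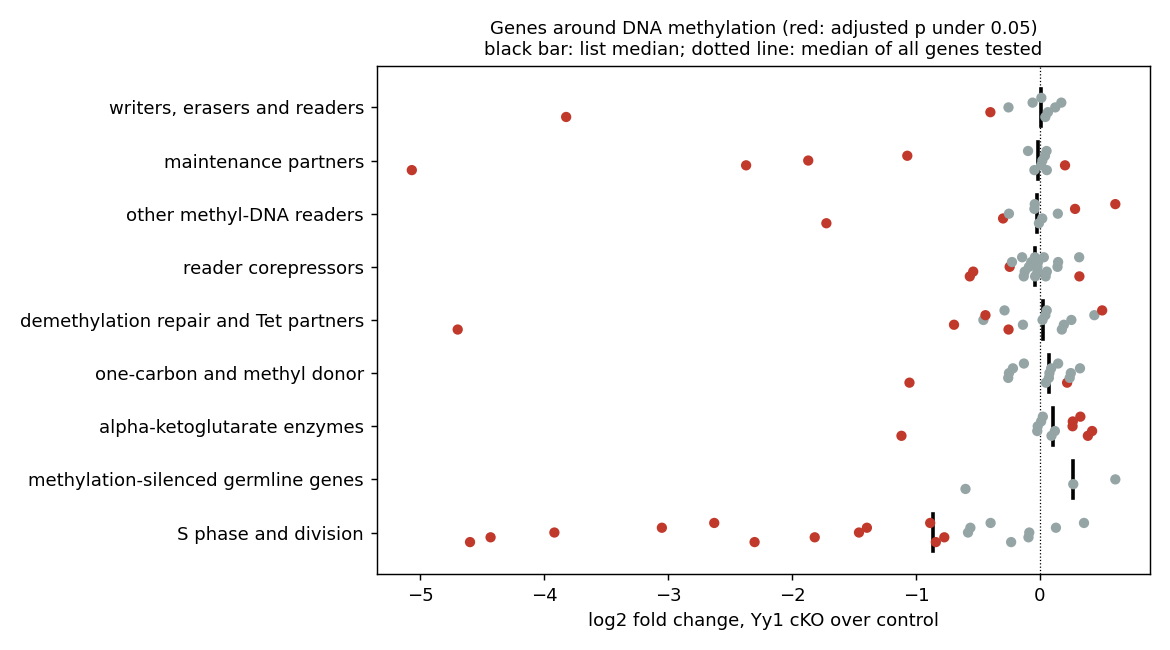
Log2 fold change, Yy1 cKO over control, of each tested gene in the lists around DNA methylation, with called genes in red, a black bar at each list median and a dotted line at the median of all genes. Most lists centre near 0 with a few genes far to the left, and the S phase and division list has a median of -0.86.

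The genes whose profiles over the 5 libraries were most like those of the genes that fell were sought among 17820 genes with a mean of at least 1 CPM, by Euclidean distance between centred log2 CPM. For Uhrf1 they were Gm12022 (distance 0.34), Sox11, a transcription factor of young neurons (0.46), and Basp1, a membrane protein of growing axons (0.52). Their log2 fold changes were -3.69, -3.72 and -3.16. For Tet1 they were Zfpm2, a cofactor of GATA factors (0.022), Nrp1, a semaphorin receptor (0.033), and Pcyt1b, an enzyme of phospholipid synthesis (0.037), with log2 fold changes of -0.39, -0.41 and -0.41. With 5 libraries in 2 groups, a like difference between the groups is enough to make profiles close.

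Marker lists of other cell types moved too, and their part in the values above was not tested. The counts that follow stand beside 10.7% higher and 12.6% lower of all genes. Markers rose in 7 of 10 cases for mature granule cells, 5 of 12 for Purkinje cells and 5 of 8 for interneurons, with 0 falling in each (edgeR; also 0 at an unadjusted p under 0.05 and with DESeq2). Without Yy1 cKO 1, Yy1 cKO 2 or control 2 there were 3 Purkinje cell markers that rose. Of 12 oligodendrocyte lineage markers 5 fell, Gpr17, Pdgfra, Cspg4, Sox10 and Cnp, and 2 rose, Mobp and Ermn. Of 10 astrocyte and Bergmann glia markers 4 rose and 2 fell. Without control 2 the oligodendrocyte list had 1 lower and 0 higher and the astrocyte list 1 of each, and without control 1 the oligodendrocyte list had 3 lower and 0 higher and the astrocyte list 1 lower. Of 8 endothelial and mural markers 4 fell and 1 rose, with a summed level of 202 to 236 CPM in Yy1 cKO and 299 and 336 CPM in controls, and 2 fell without control 1, control 2 or Yy1 cKO 1. Of 7 microglia markers 0 were called (edgeR; 0 at an unadjusted p under 0.05 and 0 with DESeq2), and 2 were lower with the replicate number as a block. Of 9 blood, choroid plexus and meningeal markers 5 rose and 1 fell, with a summed level of 554 to 872 CPM in Yy1 cKO and 306 and 374 CPM in controls. Those that rose were Alas2 of haem synthesis, Ttr of the choroid plexus and the haemoglobin genes Hba-a1, Hba-a2 and Hbb-bs. The haemoglobin genes make up most of the sum. Ttr was rare, with 17, 11 and 18 counts in Yy1 cKO and 6 and 4 counts in controls. Kl and Folr1, also of the choroid plexus, did not rise with it. Kl was not called (-0.45 ± 0.30), and Folr1 did not pass the filter on low counts. The meningeal Dcn fell (-0.64 ± 0.15, edgeR adjusted p = 0.013), and Col1a1 was at -1.10 ± 0.29 (adjusted p = 0.071). None of the list rose without control 1 or control 2, and 1 rose without Yy1 cKO 3.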

How the data were processed

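Per the submitters' processing notes, the authors used STAR 2.7.1a on build GRCm38 and featureCounts, with Trimmomatic 0.39, FastQC 0.11.8 and DESeq2 1.26.0 also named. Whether counting used strand, and how it took multi-mapping reads, is not given in the sources used here. The authors deposited raw read counts of 55421 genes. They also deposited a normalized signal for 24859 genes, found here to equal the raw count divided by 1 constant per library.

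Symbols came from GENCODE M21, with 181 identifiers unmatched. Chi-square per gene between library pairs was 3.51 to 16.7 within groups and 34.1 to 41.5 across them, above sampling noise for each pair. Counts were tested with edgeR 4.0.16 in R 4.3.3 (quasi-likelihood, TMM scaling, filterByExpr, robust dispersion, no covariate), with Benjamini-Hochberg adjustment over 20388 genes and a threshold of 0.05, after a check on simulated data. SE was taken from the F statistic. Ratios within libraries were compared by exact permutation. Alternatives were other scalings and filters, DESeq2 1.42.0, limma 3.58.1 (voom, and trend on log2 of the normalized signal plus 1), Xist as a covariate, the replicate number as a block, and leaving out each library. Named genes were the members, Yy1, the 3 nearest profiles and, in the lists around DNA methylation, up to 4 called genes per direction by p. In the S phase and division list Mki67, Top2a and Ccnb1 were instead named for falling further than Uhrf1, after their values were seen. Uhrf2, Pcna, Lig1, Nsd1, Nsd2, Setd2, Rrm1, Atoh1, Idh3b and the germline, oligodendrocyte, blood, choroid plexus and meningeal genes were also named after their values were seen. So were the alternatives for the lists. The members and lists were chosen with earlier results of these data known. A gene of the reader list is not reported here.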

Additional observations from a re-analysis of the deposited data

How the results depend on the processing

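Uhrf1 and Tet1 were lower and called under all 15 alternatives, and the other DNA methylation genes were called under none of them. The log2 fold change was -4.04 to -3.70 for Uhrf1 and -0.48 to -0.37 for Tet1 over these. Small values changed sign without being called: when scaled by library size alone Dnmt3a was at -0.07, Tet2 at -0.03, Mbd1 at -0.01 and Yy1 at -0.02, and Dnmt3a was at -0.02 without Yy1 cKO 2 and -0.0015 without control 2. The ratio differences kept their direction without any 1 library, at 0.09 to 0.23 for Dnmt1 to Dnmt3a, -3.13 to -2.74 for Uhrf1 to the S phase sum and 0.97 to 1.24 for Dnmt1 to that sum, where no exact test can pass the threshold. The background moved more. Without 1 library 2187 to 6117 genes were called, 887 to 2990 of them higher and 1267 to 3127 lower, with both lowest totals reached without a control; where 1 control is left, it is assumed to vary like the Yy1 cKO libraries. Scaled by library size alone 1432 genes were higher. With the replicate number as a block 3486 genes were higher and 2 DNA methylation genes were called, again Uhrf1 and Tet1. Only Yy1 cKO has a replicate 3, so the block takes up Yy1 cKO 3 and the comparison rests on replicates 1 and 2. Replicate numbers 1 and 2 correlated by 0.032 in their deviations over genes, so the numbers were not taken to pair the libraries. Depth limits Uhrf1 in Yy1 cKO and Dnmt3b most, at 7 to 11 and 50 to 79 counts.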
